A study of Mus musculus with 9 samples.

Results

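CC chemokines that draw monocytes and eosinophils into tissue, with a pair of their receptors, were examined in the colon of mice with dextran sodium sulfate (DSS) colitis with or without electroacupuncture (EA). The 10 members were the lines of the count table with the symbols *Ccl2*, *Ccl7*, *Ccl8*, *Ccl11*, *Ccl3*, *Ccl4*, *Ccl6*, *Ccl9*, *Ccr1* and *Ccr2*. They are 8 ligands and 2 receptors among 27719 genes, and each symbol matched 1 line. All 10 passed the filter on low counts, which left 12566 genes for testing. *Ccr2* alone passed with fewer than 3 libraries outside the DSS group at the cutoff.

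Colon RNA was sequenced as full-length cDNA on Oxford Nanopore instruments from 9 C57BL/6J mice, with 3 mice in each of 3 groups and 1 library per mouse. The control group drank distilled water. The DSS group and the DSS + EA group received 2.5% DSS, which injures the colon epithelium, in drinking water for 7 days. EA passes a current through needles. The DSS + EA mice were treated at the ST36 point of both hind limbs for 30 minutes at 2 Hz and 0.2 mA, once a day for 5 days, beginning after 5 days of modeling. The other mice were restrained for an equal time but not needled, so the design has no sham needling of a colitis mouse. The ages of the mice were not given in the sources used here. Libraries held 3742630, 3229346 and 2627695 counts in the control group, 3189244, 4235576 and 3230895 in the DSS group, and 3259727, 2842304 and 3283282 in the DSS + EA group. At these depths, 3 counts correspond to 0.708 to 1.14 CPM, the count scaled to library size, by raw totals. CPM below use TMM-scaled library sizes. On that scale 3 counts are 0.647 CPM in DSS 2 and 1.14 CPM in control 3. PCR copies were not told apart, so this floor covers counting error only. Samples are named below by group and mouse number.

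CC chemokines are small secreted proteins that bind G protein-coupled receptors on leukocytes and direct them out of the blood. CCL2 and CCL7 act on CCR2, the receptor by which inflammatory monocytes leave the bone marrow and reach tissue. CCL3, CCL6 and CCL9 act on CCR1, which monocytes and neutrophils carry. CCL11, or eotaxin, acts on CCR3 of eosinophils, and mouse CCL8 acts on CCR8. In the gut, replacement of resident macrophages by blood monocytes is a known use of the CCR2 axis.

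The ligands lie in a pair of groups on chromosome 11 (GENCODE M21, GRCm38). *Ccl2* (chr11:82035571-82037453), *Ccl7* (chr11:82045712-82047525), *Ccl11* (chr11:82057823-82062955) and *Ccl8* (chr11:82115185-82116799) are on the plus strand within 81229 bases, and *Ccl12* lies between *Ccl11* and *Ccl8*. The other group spans 91765 bases and holds *Ccl9* (chr11:83572919-83578636), *Ccl6* (chr11:83587882-83593087) and *Ccl3* (chr11:83647844-83649355) on the minus strand and *Ccl4* (chr11:83662584-83664683) on the plus strand. *Ccr1* (chr9:123962124-123968692, minus strand) and *Ccr2* (chr9:124101950-124113557, plus strand) are near neighbors on chromosome 9. *Ccl2* overlaps *Gm17268* on the opposite strand, which had 0 counts in all 9 libraries. *Ccl6* overlaps the antisense transcript *E230016K23Rik*, which is not a line of the table. Use of strand in counting was not given in the sources used here.

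RefSeq promoters (GRCm38.p6) were matched for 6 members, namely *Ccl3*, *Ccl6*, *Ccl8*, *Ccl9*, *Ccr1* and *Ccr2*. The 150 bases before the start site are printed for *Ccl8*, which overlapped between DSS and DSS + EA mice, as did *Ccl7* and *Ccl12* but not *Ccl2* and *Ccl11* of the same gene group, and for *Ccl6* and *Ccl9*, adjacent genes that moved in opposite directions in DSS. Coordinates are chr11:82115035-82115184 on the plus strand for *Ccl8*, and chr11:83593088-83593237 and chr11:83578637-83578786 on the minus strand for *Ccl6* and *Ccl9*. Capitals mark matches to the NF-kB consensus, the AP-1 motif TGANTCA or the TATA box TATAAA, and each sequence reads 5′ to 3′.
Ccl8 promoter: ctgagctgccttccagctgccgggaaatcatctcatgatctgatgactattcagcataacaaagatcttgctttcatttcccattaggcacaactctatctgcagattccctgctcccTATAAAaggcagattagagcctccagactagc
Ccl6 promoter: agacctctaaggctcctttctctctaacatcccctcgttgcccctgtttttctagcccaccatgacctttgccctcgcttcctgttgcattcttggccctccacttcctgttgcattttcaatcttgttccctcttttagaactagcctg
Ccl9 promoter: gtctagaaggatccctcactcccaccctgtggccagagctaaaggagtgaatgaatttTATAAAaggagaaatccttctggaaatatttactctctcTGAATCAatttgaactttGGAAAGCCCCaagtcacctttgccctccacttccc

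The search covered 250 bases before to 50 after the start, on both strands for NF-kB, AP-1 and the STAT motif TTCNNNGAA and on the sense strand for the TATA box. *Ccl8* held a TATA box starting 32 bases before the start site. *Ccl9* held an NF-kB match at 35, an AP-1 match at 53 and a TATA box at 92 bases before it, none overlapping another, and *Ccr1* held an NF-kB match at 74 bases before its start. None of these letters was in the windows of *Ccl6*, *Ccl3* or *Ccr2*. Of all 32851 RefSeq promoters of this length, 8.46% held the NF-kB consensus, 7.81% AP-1, 8.3% STAT and 8.32% the TATA box. The matches describe letters and not sites.

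Some libraries stood apart. On the first principal component of all tested genes (57.8% of the variance), DSS 1 lay at 59.9 and DSS 2 and DSS 3 at 105 and 119, whereas controls lay between -69.2 and -58.8 and DSS + EA mice between -33.2 and -31.3. DSS 1 was therefore the DSS mouse nearest to the other groups. The DSS + EA libraries also carried transcripts of pancreas acinar cells. The 12 acinar markers summed to 582, 38773 and 17069 CPM in DSS + EA 1 to 3, against 42.1 to 96.4 CPM in the DSS group and 120 to 260 CPM in controls, where *Cela1* made up most of the sum. Of the 12, 11 reached the filter on low counts only through the DSS + EA libraries, so no count of calls is given. The part of these transcripts in the results was not tested.

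Comparison of the DSS group with the control group asked which of the chemokines accompany colitis. Leaving out *Ccr2*, which met the filter only with the help of DSS libraries, 8 of the 9 members were higher in DSS and *Ccl6* was lower (edgeR, Benjamini-Hochberg adjusted p under 0.05). Of the 12566 genes tested, 21.5% were called higher and 19.5% lower in this comparison. The median log2 fold change was 3.73 over these 9 members and 0.02 over all genes tested. In bulk tissue, fewer cells of a type and less RNA per cell cannot be told apart.

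*Ccl2*, the main monocyte attractant, measured 1.01, 2.31 and 1.52 CPM in control mice, 121, 519 and 368 CPM in DSS mice and 37.1, 22.2 and 39.7 CPM in DSS + EA mice. The 3 groups did not overlap, and DSS + EA mice lay between the others. *Ccl2* rose 208-fold in DSS (log2 fold change 7.70 ± 0.65 SE, edgeR adjusted p = 4.73e-05). With EA it was 10.1-fold lower than in DSS (log2 fold change -3.34 ± 0.49, edgeR adjusted p = 0.00126) and still 20.5-fold above control (4.36 ± 0.61, edgeR adjusted p = 0.00584). Control mice had 4, 7 and 4 *Ccl2* counts, so the sizes against control are uncertain. The log2 value for DSS vs. control was 7.27 with a prior count of 2. It ranged from 7.26 without DSS 2 to 8.08 without DSS 1.

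*Ccl7*, which shares the CCR2 receptor, gave 2.27, 5.61 and 1.52 CPM in control, 55.9, 308 and 276 CPM in DSS and 33.8, 28.5 and 77.1 CPM in DSS + EA mice. DSS 1 lay below DSS + EA 3, so the groups with colitis overlapped. The rise in DSS was 67.4-fold (log2 fold change 6.07 ± 0.79, edgeR adjusted p = 0.000402), and its log2 value was 6.71 without control 2 and 5.73 without DSS 2. With EA *Ccl7* was 4.58-fold lower than in DSS (-2.20 ± 0.63, edgeR adjusted p = 0.0222) and 14.7-fold above control (3.88 ± 0.75, edgeR adjusted p = 0.0209). Both of the latter calls depended on single mice. The call against DSS was lost in 4 of the 9 fits that left out 1 mouse each (DSS + EA 1, DSS + EA 2, DSS 2 or DSS 3), with an edgeR adjusted p up to 0.0802, and the log2 difference ranged from -2.79 without DSS + EA 3 to -1.85 without DSS 2. The call against control was lost without DSS + EA 3 or any 1 control mouse, with an edgeR adjusted p up to 0.134, and its log2 value ranged from 3.27 without DSS + EA 3 to 4.56 without control 2.

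*Ccl11*, the eotaxin gene, measured 3.28, 4.29 and 6.08 CPM in control mice and 21.4, 99.2 and 58.5 CPM in DSS mice. In DSS + EA mice it was 5.13, 2.96 and 5.98 CPM, inside or next to the control range and below every DSS mouse. *Ccl11* was 13.3-fold higher in DSS than in control (log2 fold change 3.73 ± 0.55, edgeR adjusted p = 0.000712) and 12.6-fold lower in DSS + EA than in DSS (-3.65 ± 0.54, edgeR adjusted p = 0.00132). DSS + EA and control differed by 0.08 on the log2 scale, with a 95% interval of -1.23 to 1.40.

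*Ccl8*, at the other end of the same gene group, was 17.9, 58.1 and 36.5 CPM in control, 326, 111 and 162 CPM in DSS and 199.9, 99.3 and 224 CPM in DSS + EA mice. Here DSS 1, the DSS mouse with the lowest *Ccl2*, *Ccl7* and *Ccl11*, was the highest of all 9. *Ccl8* was 5.34-fold higher in DSS than in control (log2 fold change 2.42 ± 0.52, edgeR adjusted p = 0.00524). It did not pass the test between DSS + EA and DSS (-0.19 ± 0.49, 95% interval -1.28 to 0.90, edgeR adjusted p = 0.782), and without DSS 1 the difference was 0.39. Against control it was 4.67-fold higher in DSS + EA (2.22 ± 0.52, edgeR adjusted p = 0.0468), a call lost without any 1 mouse of either group (edgeR adjusted p 0.05 to 0.199), with a filter of a mean of at least 20 counts (edgeR adjusted p = 0.0575) and with the replicate number as a block (edgeR adjusted p = 0.121).

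The ratio of *Ccl2* to *Ccl8* counts was taken within each library, where depth cancels. It was 0.0563, 0.0398 and 0.0417 in control mice, 0.37, 4.69 and 2.27 in DSS mice and 0.186, 0.224 and 0.177 in DSS + EA mice. The ranges of the 3 groups did not overlap. The mean log2 ratio was 3.02 lower in DSS + EA than in DSS (exact permutation test, two-sided p = 0.1, the smallest that 3 against 3 allows).

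**Figure D1:**
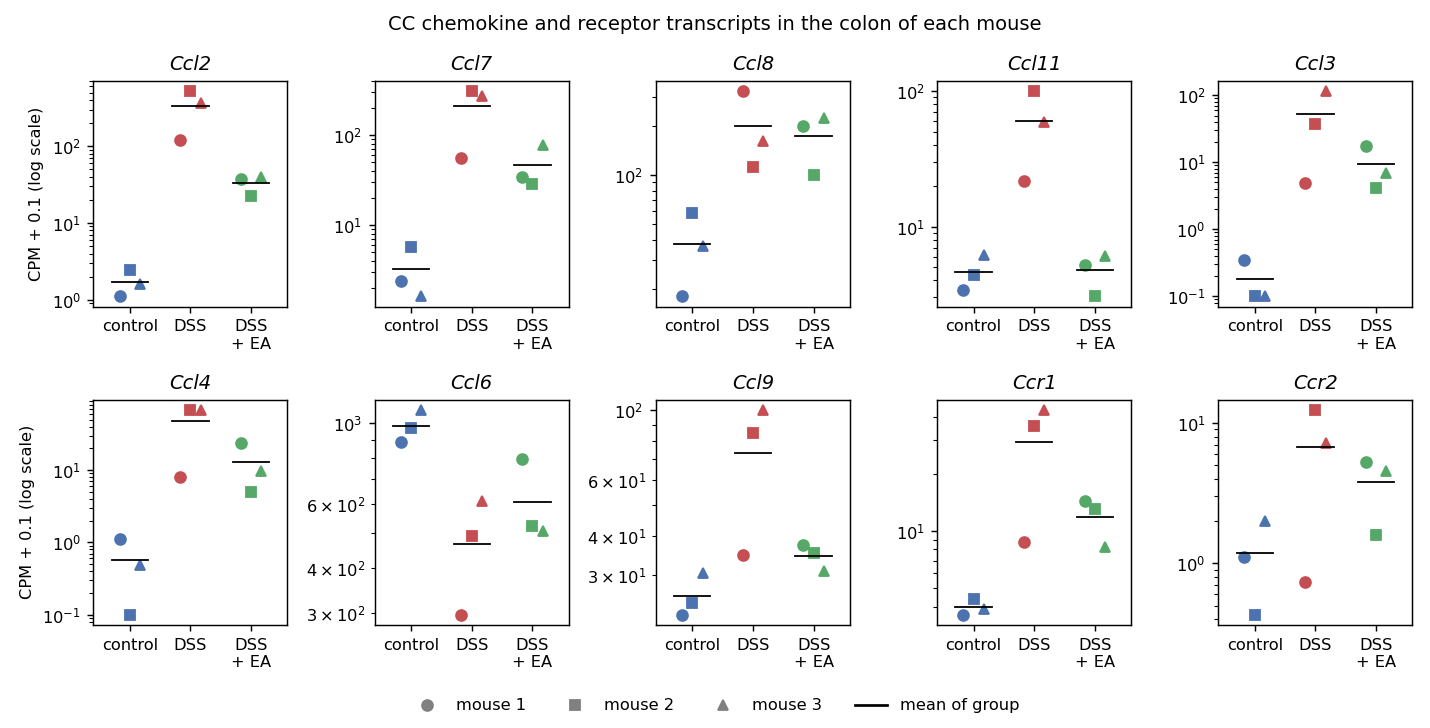
CPM plus 0.1 on a log axis for each of the 10 members in every mouse, with a line at the mean of each group and a symbol for each mouse number. *Ccl2* and *Ccl11* in DSS + EA mice lie below all DSS mice, *Ccl8* in these groups overlaps, and *Ccl6* is highest in control mice.

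*Ccl3* and *Ccl4* encode macrophage inflammatory proteins, which draw monocytes and other leukocytes. *Ccl3* had 1, 0 and 0 counts in control mice, 15, 176 and 371 in DSS mice and 58, 11 and 22 in DSS + EA mice. *Ccl4* had 4, 0 and 1 counts in control, 25, 310 and 220 in DSS and 79, 13 and 31 in DSS + EA mice. For both genes DSS 1 was the lowest DSS mouse and lay within the DSS + EA range. The *Ccl3* mean of DSS mice was 54.6 times a floor of 3 counts in each control library, and 22.2 times it without DSS 3. By edgeR the log2 fold change of *Ccl3* was 8.54, with a 95% interval of 5.10 to 11.98 (edgeR adjusted p = 0.00213). *Ccl4* was higher in DSS than in control by 6.45 ± 1.11 on the log2 scale (edgeR adjusted p = 0.00161). With 5 counts over the control group the size for *Ccl4* is uncertain. It was 7.78 without control 1, 5.89 without control 2 and 5.45 with a prior count of 2.

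Between DSS + EA and DSS neither passed the test. The log2 difference was -2.44 ± 0.89 for *Ccl3* (edgeR adjusted p = 0.0555) and -1.88 ± 0.75 for *Ccl4* (edgeR adjusted p = 0.0754). Without DSS 1 both passed, with edgeR adjusted p of 0.00362 and 0.00638, and *Ccl4* also passed without DSS + EA 1 (edgeR adjusted p = 0.0486). *Ccl3* also passed without a filter on low counts (edgeR adjusted p = 0.0363). The *Ccl3* difference shrank to -1.21 without DSS 3 (edgeR adjusted p = 0.252) and grew to -3.24 without DSS + EA 1 (edgeR adjusted p = 0.0545), and that of *Ccl4* ranged from -2.70 to -1.46, with an edgeR adjusted p up to 0.199. Against control, DSS + EA also missed the threshold, at 0.0921 for *Ccl3* and 0.0637 for *Ccl4* (edgeR adjusted p), and DESeq2, the fit to these groups alone, the fit without a filter and that without DSS 1 called both.

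*Ccl6* ran the other way, and which cells of the colon carried it was not tested. It measured 888, 971 and 1088 CPM in control, 297, 488 and 611 CPM in DSS and 795, 520 and 504 CPM in DSS + EA mice. All DSS mice lay below all control mice, and the DSS + EA mice overlapped the DSS range. *Ccl6* was 2.11-fold lower in DSS than in control (log2 fold change -1.08 ± 0.28, edgeR adjusted p = 0.0133). DSS + EA differed from DSS by 0.38 ± 0.28 (95% interval -0.24 to 1.01, edgeR adjusted p = 0.308) and from control by -0.70 ± 0.28 (edgeR adjusted p = 0.241).

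*Ccl9*, whose gene lies 9245 bases from *Ccl6* on the same strand, rose in DSS. It measured 22.4, 24.4 and 30.4 CPM in control, 34.8, 84.7 and 100.3 CPM in DSS and 37.4, 35.2 and 30.8 CPM in DSS + EA mice. DSS 2 and DSS 3 stood above all others and DSS 1 lay within the DSS + EA range. The fold change was 2.85 in DSS vs. control (log2 1.51 ± 0.34, edgeR adjusted p = 0.00682), and *Ccl9* was 2.13-fold lower in DSS + EA than in DSS (-1.09 ± 0.34, edgeR adjusted p = 0.032). The latter call was lost without any 1 of DSS 2, DSS 3, control 2 or the DSS + EA mice (edgeR adjusted p up to 0.0974), in the fit to these groups alone (edgeR adjusted p = 0.0708) and with the replicate number as a block (edgeR adjusted p = 0.0589).

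The receptors were scarce. *Ccr1* measured 3.53, 4.29 and 3.8 CPM in control, 8.62, 35.6 and 43.3 CPM in DSS and 14.2, 13 and 8.18 CPM in DSS + EA mice. It was 7.52-fold higher in DSS than in control (log2 2.91 ± 0.54, edgeR adjusted p = 0.00246), and DSS + EA differed from DSS by -1.31 ± 0.49 (edgeR adjusted p = 0.059). Without DSS 1 that difference was -1.71 (edgeR adjusted p = 0.00093).

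*Ccr2* had 4, 1 and 5 counts in control mice, 2, 57 and 23 in DSS mice and 17, 4 and 14 in DSS + EA mice. DSS 1, with 2 counts, lay inside the control range. Because *Ccr2* entered the test only with the help of DSS libraries, its difference between DSS and control is a description and no call is drawn from it. The log2 difference was 2.67 ± 0.91 (edgeR adjusted p = 0.0396), ranged from 1.88 without DSS 2 to 3.18 without control 3, and missed the threshold in every fit that left out 1 mouse other than DSS 1 or DSS + EA 2 (edgeR adjusted p up to 0.164) and with the replicate block (edgeR adjusted p = 0.085). In the fit to DSS and control alone, and with a mean of at least 20 counts, it did not enter the test. DSS + EA differed from DSS by -0.87 ± 0.76 (edgeR adjusted p = 0.394), which did not pass the test. That difference ranged from -1.35 without DSS 1 to -0.08 without DSS 2.

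Counted over the members, 4 were lower and 0 higher in DSS + EA than in DSS, where 18.3% of all genes were called lower and 17.2% higher. *Ccr2* was not among those called, and without it the median log2 difference was -1.88 over the members, against -0.02 over all genes. In DSS + EA vs. control, 3 members were higher (*Ccl2*, *Ccl7* and *Ccl8*) and 0 lower, where 3.00% of all genes were called higher and 0.637% lower. The count of 4 became 7 without DSS 1, 2 without DSS 2, DSS 3 or DSS + EA 2, and 3 without DSS + EA 1, DSS + EA 3 or control 2, and it was 4 without control 1 or control 3. *Ccl2* and *Ccl11* passed in all 9 of these fits, with log2 differences of -3.71 to -2.90 and -4.02 to -3.08.

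With both acinar-rich mice left out, DSS + EA 1 stood alone for its group and no member passed against DSS. The differences were -3.15 for *Ccl2* (edgeR adjusted p = 0.0605) and -3.51 for *Ccl11* (edgeR adjusted p = 0.058). The comparisons share mice, so their values are given side by side and no relation between them was tested.

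**Figure D2:**
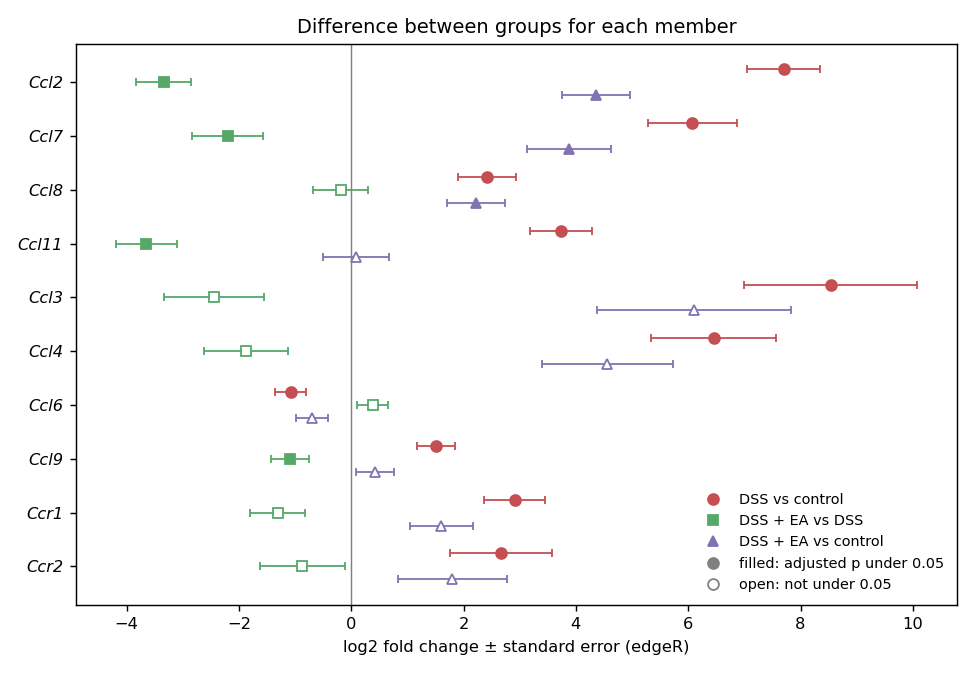
Log2 fold change with its standard error (edgeR) for the 10 members in the 3 comparisons, filled where the adjusted p was under 0.05. DSS vs. control is to the right of 0 for 9 members, and of the DSS + EA vs. DSS values only *Ccl2*, *Ccl7*, *Ccl11* and *Ccl9* are filled.

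The order of the ligands depended on the scale. A full-length read can stand for 1 molecule whatever the transcript's length, in which case CPM compares genes directly, and CPM per kb of transcript corrects for length where reads are fragments. On the CPM scale *Ccl6* had the highest mean level of the 8 ligands in every group, with 982 ± 101 CPM in control, 465 ± 158 in DSS and 606 ± 163 in DSS + EA mice (SD, n = 3). In DSS mice it was followed by *Ccl2* (336 ± 201 CPM), within the spread, *Ccl7* (213 ± 137 CPM) and *Ccl8* (199.7 ± 113 CPM). In DSS + EA mice it was followed by *Ccl8* (175 ± 66.3 CPM), and *Ccl2* stood at 33 ± 9.42 CPM.

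Per kb, *Ccl6* also led in control colon, with 682 ± 69.9 CPM per kb, and *Ccl8* followed with 73.4 ± 39.3. In DSS colon the per-kb levels of *Ccl2* (413 ± 247), *Ccl8* (391 ± 221) and *Ccl6* (323 ± 110) differed by less than their spreads. In DSS + EA colon the per-kb levels of *Ccl6* (421 ± 113) and *Ccl8* (342 ± 130) also lay within the spread. *Ccr2* had the lowest level of the 10 members in both colitis groups on either scale, with 6.68 ± 5.84 CPM in DSS and 3.67 ± 1.93 CPM in DSS + EA mice.

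As a share of the counts of the 8 ligands, *Ccl6* made up 94.9, 91.1 and 93.4% in control, 34.2, 28.5 and 34.7% in DSS and 69.1, 72.5 and 56.1% in DSS + EA mice. Per kb its mean share was 88.3% in control, 19.8% in DSS and 47.2% in DSS + EA mice, and on both scales the 3 groups did not overlap. *Ccl2* took 0.152 ± 0.0574% of the counts in control, 21.7 ± 8.21% in DSS and 3.58 ± 0.724% in DSS + EA mice. *Ccl8* took 37.6% of the counts in DSS 1 (57.4% per kb), 6.45 and 9.21% in DSS 2 and DSS 3, and 13.8 to 25% in DSS + EA mice. Without *Ccl6*, the summed level of the other ligands was 73.1 ± 23.4 CPM in control, 982 ± 357 CPM in DSS and 316 ± 104 CPM in DSS + EA mice. Shares of a whole rise where other shares fall, so they describe the make-up of the pool and not the level of each gene.

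**Figure D3:**
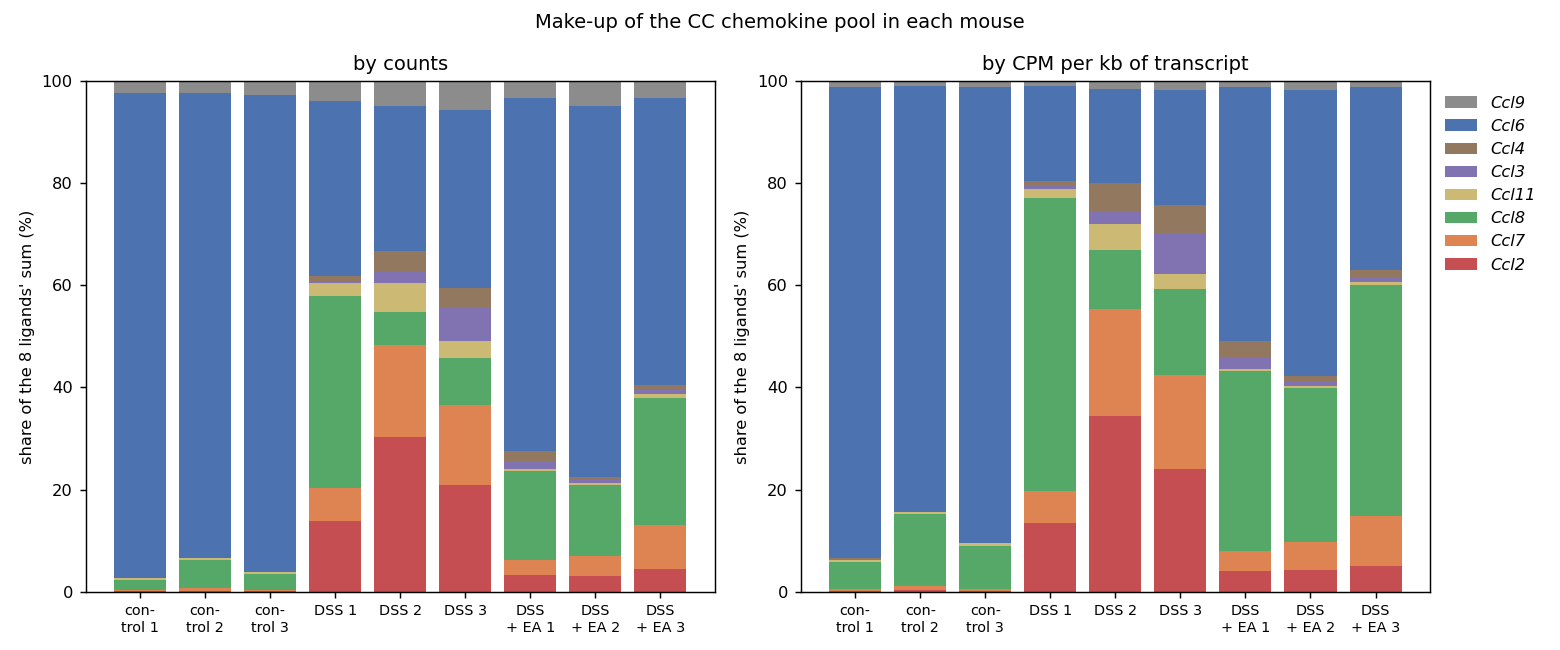
Share of each of the 8 ligands in their sum, in percent, 1 bar for each mouse, by counts on the left and by CPM per kb of transcript on the right. *Ccl6* fills 91.1 to 94.9% of the counts of control mice, and *Ccl8* fills 37.6% of the counts of DSS 1 and 57.4% of its CPM per kb.

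Across the 9 libraries the members did not all vary together. Pearson's r of log2 CPM was 0.98 for *Ccl2* and *Ccl7* and 0.98 for *Ccl3* and *Ccl4*, but 0.40 for *Ccl8* and *Ccl11* and -0.73 for *Ccl2* and *Ccl6*. These values describe 9 libraries and take in the differences between their 3 groups. Of 9480 genes compared, those most like *Ccl2* were *C1ra* (r = 0.993), *S100a9* (0.993) and *Pdpn* (0.991), a complement protease, a neutrophil calcium-binding protein and a stromal glycoprotein. *Ccl8* was most like *Pgk1* (0.957), *Chaf1b* (0.947) and *Eno1* (0.941), of which *Pgk1* and *Eno1* encode glycolytic enzymes. *Ccl11* was most like the unnamed locus ONT.5134 (0.991), *Egfr* (0.984) and *Myof* (0.979). *Ccl3* was most like the cytokine *Il1a* (0.984), *Hdc* (0.983) and *Ifi207* (0.981). *Ccl6* was most like *Sco2* (0.973), *Mbnl2* (0.967) and *Nuak2* (0.962). The closest gene was ONT.3335 for *Ccl7* (0.990), *Ifi207* for *Ccl4* (0.983), *Pygl* for *Ccl9* (0.985), *Cxcl3* for *Ccr1* (0.980) and *Nup205* for *Ccr2* (0.931).

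Among 13 other CC ligands, 8 had enough counts to be tested. In DSS, 5 rose (*Ccl5*, *Ccl12*, *Ccl19*, *Ccl20* and *Ccl21a*) and *Ccl28*, a mucosal chemokine of epithelium, fell by 1.85 on the log2 scale (edgeR adjusted p = 0.0228). *Ccl12*, a further CCR2 ligand of the mouse that lies between *Ccl11* and *Ccl8*, had 9, 10 and 7 counts in control, 52, 125 and 377 in DSS and 117, 91 and 196 in DSS + EA mice. It was higher in DSS than in control by 4.27 ± 0.75 on the log2 scale (edgeR adjusted p = 0.00183) and higher in DSS + EA than in control by 3.98 ± 0.75 (edgeR adjusted p = 0.0186). The DSS + EA mice lay inside the DSS range, and the difference between them was -0.29 (edgeR adjusted p = 0.73). In DSS + EA vs. DSS, 0 of the 8 were higher and 1 was lower, the lymphoid homing chemokine *Ccl21a* (-0.64 ± 0.21, edgeR adjusted p = 0.0389). *Ccl20*, which draws CCR6-bearing lymphocytes, and *Ccl12* were the 2 called above control with EA (*Ccl20* by 1.82 ± 0.32, edgeR adjusted p = 0.0149).

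Of 12 other CC receptors and scavenger receptors, 5 were tested. In DSS the chemerin-binding receptor *Ccrl2* and the chemokine-binding *Ackr1* of venules rose and the scavenger *Ackr4* fell. With EA *Ackr1* was lower than in DSS (-1.88 ± 0.32, edgeR adjusted p = 0.00243). None of the 5 was called between DSS + EA and control. The eotaxin receptor *Ccr3* had 0, 2 and 0 counts in control, 1, 0 and 0 in DSS and 1, 0 and 4 in DSS + EA mice, and *Ccr8*, the receptor for CCL8, had 0 in all 9 libraries.

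Of 14 cytokines known to induce CC chemokines 8 were tested, and 4 of these (*Il1a*, *Il6*, *Osm* and *Tslp*) reached the filter only with the help of DSS or control libraries. The other 4 (*Il1b*, *Tnf*, *Il33* and *Csf1*) were higher in DSS than in control, and of them *Il33* was lower with EA than in DSS (log2 difference -1.79 ± 0.55, edgeR adjusted p = 0.0294). *Il6* had 0, 1 and 1 counts in control, 93, 255 and 109 in DSS and 4, 7 and 8 in DSS + EA mice (no call drawn, as it was testable only through DSS). *Osm* had 0 counts in every control mouse, 13, 152 and 70 in DSS and 12, 7 and 5 in DSS + EA mice, and is likewise a description. *Il1b* and *Tnf* remained above control in DSS + EA (5.34 ± 0.93, edgeR adjusted p = 0.0137, and 2.78 ± 0.65, edgeR adjusted p = 0.0468), and so did *Il33* (2.71 ± 0.64, edgeR adjusted p = 0.0489). *Il13*, a T helper 2 cytokine known to induce eotaxin, had 0 counts in all libraries, and *Il4* and *Il5* had at most 4.

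Transcripts of cell type markers are given beside the chemokines. Their part in the chemokine results was not tested. Of 10 monocyte markers *Vcan* was testable only through DSS libraries, and 6 of the other 9 rose in DSS. Between DSS + EA and DSS, 7 markers were testable without the help of 1 of these groups, and of these 4 were lower with EA and 0 higher. *Chil3* had 3, 0 and 2 counts in control, 408, 3930 and 5721 in DSS and 57, 66 and 70 in DSS + EA mice (DSS + EA vs. DSS -5.43 ± 0.83, edgeR adjusted p = 0.00144), and *Thbs1* and *Fn1*, both matrix protein genes, differed by -2.42 ± 0.34 and -1.34 ± 0.23. *Ms4a4c* had 5, 3 and 31 counts in DSS and 96, 21 and 162 in DSS + EA mice, which is given as a description. *Plac8* was the most abundant monocyte marker by counts over all libraries, though *Chil3* exceeded it in DSS 3, and the list summed to 1155 CPM in control, 2982 in DSS and 2688 in DSS + EA mice on average. *Plac8*, called in no comparison, held 1003, 1305 and 2334 CPM of these sums, and the other 9 markers summed to 152 ± 36.5, 1677 ± 1197 and 354 ± 99.2 CPM.

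Of 12 macrophage markers *Cx3cr1*, the fractalkine receptor of resident gut macrophages, was testable in DSS vs. control only through control libraries, and 9 of the other 11 rose and 0 fell in DSS. With EA 7 of the 12 were lower than in DSS and 1 higher. That was *Cx3cr1*, with 16, 11 and 14 counts in control, 2, 7 and 1 in DSS and 21, 6 and 17 in DSS + EA mice (DSS + EA vs. DSS 2.36 ± 0.56, edgeR adjusted p = 0.0103). The scavenger receptor gene *Cd163* and the mannose receptor gene *Mrc1* were lower with EA, with log2 differences of -2.52 ± 0.45 and -2.03 ± 0.30. *C1qa*, *C1qb* and *C1qc*, complement genes of macrophages, were above control with EA by 1.74 ± 0.24, 1.32 ± 0.27 and 1.36 ± 0.18. *Lyz2* was the most abundant of the list, which summed to 497, 1981 and 1037 CPM in control, DSS and DSS + EA mice.

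Eosinophil markers were near the floor in every group. The 9 markers summed to 4.03 to 12.5 CPM in the 9 libraries, and only 2 could be tested. *Epx* and *Ear1* had 0 counts in all libraries, *Siglecf* at most 4, and *Prg2*, the most abundant by mean CPM, at most 17. *Il5ra*, the interleukin-5 receptor gene, had 2, 1 and 1 counts in control, 12, 38 and 11 in DSS and 4, 6 and 13 in DSS + EA mice. Both markers reached the filter only with the help of 1 group, so no call is drawn from them.

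Of 12 neutrophil markers 9 were tested. *Ltf*, *Ngp* and *Camp* were testable only through DSS libraries, and the other 6 rose in DSS. Between DSS + EA and DSS, *Cxcr2* reached the filter only with the help of DSS + EA libraries, and of the other 5 markers 4 were lower with EA. Against control, 5 of 8 markers were higher with EA. They summed to 134, 158 and 22.4 CPM in control, 4508, 24970 and 27204 CPM in DSS and 1461, 1189 and 1580 CPM in DSS + EA mice. By counts the most abundant was *S100a8* in DSS 2 and DSS 3 and *Ly6g* in DSS 1. By the sum DSS 1 was again the lowest of its group, but by *Ly6g* it was the highest (2149 CPM, against 1287 and 1395 CPM). *Ly6g* averaged 97.2 CPM in control, 1611 CPM in DSS and 693 CPM in DSS + EA mice. *S100a8* averaged 1.29, 12136 and 484 CPM in the same order. The control sums were therefore mostly *Ly6g*, which was not called between DSS + EA and DSS (edgeR adjusted p = 0.148). *Mmp8* and *Retnlg*, neutrophil genes, were among the 3 genes most like *Ccr1* (r = 0.979 and 0.974).

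All 9 fibroblast markers rose in DSS and 7 were lower with EA than in DSS, and their sum was 807, 5279 and 1674 CPM in the 3 groups. *Dcn*, *Pdgfra* and *Pdpn* were lower in DSS + EA than in DSS, with log2 differences of -2.05 ± 0.20, -1.66 ± 0.21 and -1.72 ± 0.22. Fibroblasts and endothelium are known sources of CCL2, CCL7 and CCL11. Of 6 endothelial markers 4 rose in DSS and the same number was lower with EA, with sums of 36.6, 109.7 and 38.6 CPM. For *Pecam1* the log2 differences were 1.66 ± 0.19 and -1.55 ± 0.19.

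Of 10 colon epithelium markers 6 fell in DSS and 4 were higher with EA than in DSS. *Car1*, the most abundant, fell by 3.05 on the log2 scale in DSS, and *Vil1* was higher with EA than in DSS by 1.99 ± 0.39. The epithelial sum was 5455 CPM in DSS 1 and 2049 and 1032 CPM in DSS 2 and DSS 3. Of 6 smooth muscle markers 5 fell in DSS and 1, *Cnn1*, was higher with EA than in DSS (1.19 ± 0.27). Epithelial and smooth muscle transcripts were present in all libraries, as colon tissue has.

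**Figure D4:**
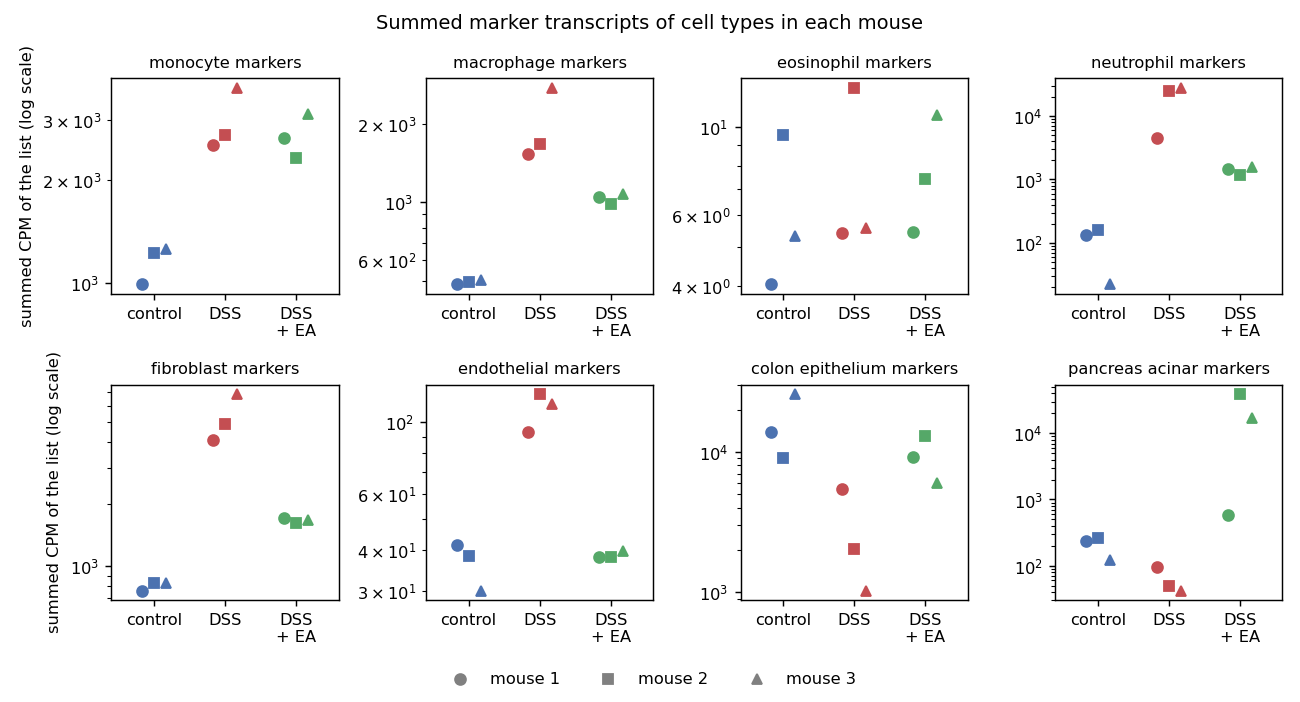
Summed CPM on log axes of 8 marker lists in every mouse. Neutrophil, fibroblast and endothelial sums of DSS mice lie above those of the other groups, eosinophil sums lie between 4.03 and 12.5 CPM in all 9 mice, and acinar sums of DSS + EA 2 and DSS + EA 3 reach 38773 and 17069 CPM.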

How the data were processed

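The authors deposited whole-number read counts per gene, not normalized, for 9 Nanopore cDNA libraries. The submitters' notes name the build mm10, and the aligner, counter, annotation and use of strand are not given in the sources used here. Reads of overlapping genes and close paralogs may have been divided between them, and PCR copies were not told apart. Of 27733 lines, 14 held no counts and were skipped. The table has 0 sample columns outside these mice and 0 identical library pairs.

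Groups were taken from the sample labels. Counts were normalized by TMM, filtered with filterByExpr and fitted over all 9 libraries with edgeR's quasi-likelihood test (edgeR 4.0.16, R 4.3.3). Benjamini-Hochberg adjustment covered all 12566 genes tested, at a threshold of 0.05. No call is counted in the text for a listed gene that met the filter in 3 libraries only with those of 1 compared group. CPM used TMM-scaled library sizes, and CPM per kb, given beside CPM, the longest protein-coding GENCODE M21 transcript. ± is the SE of a log2 fold change or the SD over 3 mice. The fits were run on simulated counts with the same spread for every gene, which checked the code and not the calls of these members. Alternatives were RLE scaling, library totals, DESeq2 1.42.0, other filters, a prior count of 2, the fit to 2 groups only, a fold threshold, a replicate block and leaving out mice.

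The members, gene lists and tests were chosen with earlier results of these data known. All members were named. From the other CC ligands and receptors, cytokines and cell type markers, called genes of smallest p were eligible, up to 3 in each direction, with the most abundant marker and defining markers at 0. The 3 genes of highest Pearson r (log2 CPM, prior count 2, mean of at least 20 counts) were compared with each member, and for some members only the first is named. Other genes named for their role, such as *Ccr3* and *Ccr8*, were chosen after their values were seen. Results for some listed genes are not reported here.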

Additional observations from a re-analysis of the deposited data

How the results depend on the processing

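No called value changed direction under the alternatives run. Among values not called, *Ccl8* in DSS + EA vs. DSS (-0.49 to 0.39) and *Ccl11* in DSS + EA vs. control (-0.16 to 0.33) changed sign when 1 mouse was left out. For DSS vs. control, 5145 genes were called, and so were 9 members, leaving out *Ccr2*. The rule of an absolute log2 fold change over 2.5 with P under 0.01 was passed by 1280 genes and 6 members. For DSS + EA vs. DSS that rule left 806 of 4457 genes and 2 of 4 members. For DSS + EA vs. control 261 genes and 4 members passed it, with *Ccl8* lost and *Ccl3* and *Ccl4* gained. DSS + EA vs. control gave 1147 genes and 6 members with these groups alone, 703 genes and 5 members with DESeq2, and 5 members without a filter, against 457 genes and 3 members. Leaving out 1 mouse gave 2 to 7 members for DSS + EA vs. DSS, and 107 to 772 genes and 1 to 6 members for DSS + EA vs. control. With DSS + EA 2 and DSS + EA 3 both left out, an alternative chosen after seeing the data, the pooled spread was assumed for the lone DSS + EA mouse. This gave 807 genes and 0 members called against DSS, and 54 genes and 1 member against control, with fewer mice. The replicate number as a block ended the calls of *Ccl9* in DSS + EA vs. DSS (-0.99, edgeR adjusted p = 0.0589) and *Ccl8* in DSS + EA vs. control (2.12, edgeR adjusted p = 0.121). The block changed no other member's call. For *Ccr2* in DSS vs. control, from which no call is drawn, the value with the block was 2.52 (edgeR adjusted p = 0.085). Same-numbered mice are different animals, and the correlations of their deviations were -0.16 to 0.105, so the numbers do not pair them. In control mice *Ccl3*, *Ccl4*, *Ccr2* and *Ccr3* had 0 to 5 counts and *Ccl2* 4 to 7, and small differences there were not detectable. p-values measure the spread between these 9 mice. Causes of the changes above were not tested.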

Other observations

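Of 8 T and NK cell markers 4 were tested, and *Trac* was not in the table. *Cd4* and *Gzmb* depended on 1 group to reach the filter. In DSS 1 fell, and with EA 1 was higher than in DSS. Both were *Nkg7*, a granule protein gene of cytotoxic cells, with 14, 10 and 15 counts in control, 2, 9 and 6 in DSS and 34, 17 and 26 in DSS + EA mice (DSS + EA vs. DSS 2.42 ± 0.43, edgeR adjusted p = 0.0028). All DSS + EA mice lay above all others. Of 6 B and plasma cell markers tested, 1 rose and 1 fell in DSS, and of the 5 other than *Ms4a1*, 1 was higher and 1 lower with EA. *Jchain*, the joining chain of secreted antibodies and the most abundant of the list, fell by 2.76 on the log2 scale in DSS. *Ms4a1*, which encodes CD20, had 11, 10 and 0 counts in control, 0, 3 and 0 in DSS and 15, 9 and 25 in DSS + EA mice. *Ms4a1* reached the filter on low counts only with the help of DSS + EA libraries, so these counts are a description.

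The mast cell protease gene *Cma1* had at most 30 counts in a library. Of 2 mast cell markers tested, *Kit* fell in DSS by 1.92 on the log2 scale, and *Kit* is also expressed by interstitial cells of the gut wall. Neither was called with EA. Of 3 adipose markers tested, 1 rose and 2 fell in DSS, and with EA 1 was higher and 1 lower than in DSS. *Fabp4* rose in DSS by 1.25 ± 0.27 and was lower with EA by -1.17 ± 0.27, whereas *Cidec*, a lipid droplet gene, fell by 2.48 in DSS and was higher with EA by 2.01 ± 0.52. *Fabp4* is also expressed by macrophages and endothelium.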
